A study of Homo sapiens with 8 samples.

Results

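HaCaT cells that received the CARD14 variants N737H and I593T were compared with HaCaT cells that received either wild-type CARD14 (WT) or R820W. All 8 libraries of the series entered, 4 on each side, and 14154 of the 28518 genes in the deposited count table were kept because they had 10 counts or more in 4 or more libraries. The grouping was chosen from these same measurements, because N737H and I593T appeared to shift alike. The values of this contrast are therefore given as a description. Its p-values serve to order genes and to give background counts and support nothing, and the number of genes that stand apart is no evidence for the grouping. At the edge of the filter, 326 genes had 10 counts in exactly 4 libraries and 329 in exactly 3.

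HaCaT is an immortalised line of human keratinocytes, the main cells of the epidermis. In all 4 groups CARD14 had been knocked out, so that the controls carry the deletion too, and each dish (10 cm) was transfected with 9 ug of a plasmid named CARD14-WT-T2A-eGFP or its R820W, N737H or I593T counterpart. The medium was changed 2 h later, cells with GFP signal were sorted at 24 h, and total RNA was sequenced from a low-input kit. Each construct had a library A and a library B (the letters of the titles), and the design text mentions 2 independent experiments without tying the letters to them. The sources used here do not give the promoter of the plasmid or the number of knockout clones, and no library of cells without plasmid was analysed here.

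CARD14 is an epithelial member of the CARD-MAGUK scaffold proteins. When active it gathers BCL10 and MALT1 into a filament that recruits ubiquitin ligases and the IKK kinases, which free NF-kB to enter the nucleus. In keratinocytes this pathway drives chemokines, cytokines of the IL-36 and IL-17 axes and antimicrobial proteins. Activating CARD14 variants are known from psoriasis and pityriasis rubra pilaris, and loss-of-function variants from a severe form of atopic dermatitis.

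Total counts ran from 17892608 to 24629860 per library. Detected genes ran from 17836 (N737H A) to 18855 (R820W B), apart from N737H B with 21059. N737H B also had the highest normalisation factor (1.072), and WT B the lowest (0.927). All 8 keratinocyte markers were expressed, with a summed level of 5820 to 7250 CPM (counts scaled by normalised library size) with WT and R820W and 4320 to 5870 with N737H and I593T. Of the markers of other cell types, 9 of 10 for fibroblasts, 6 of 8 for leukocytes, 4 of 7 for melanocytes and 6 of 6 for endothelial cells had a mean below 1 CPM, with TYR at 0. The summed fibroblast markers, nearly all FN1, ranged from 128 to 391 CPM with WT and R820W and from 173 to 419 with N737H and I593T. The leukocyte sums, mostly CD68, ranged from 63.9 to 92.1 and from 51.0 to 73.8 CPM, the melanocyte sums from 9.68 to 11.8 and from 8.76 to 14.1, and the endothelial sums from 1.25 to 2.35 and from 1.48 to 3.61. In bulk RNA, fewer cells of a type and less RNA per cell cannot be told apart. Principal component 1 (34.4% of the variance) set all A libraries apart from all B libraries, and component 2 (24.9%) placed WT B and N737H B at its opposite ends.

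The likeness of N737H and I593T was seen in letter A and not in letter B. Over 9584 genes with a mean of at least 5 CPM, the SD of the log2 CPM difference between the 2 libraries was 0.177 in A, the lowest of the 6 pairs of that letter, and 7 genes differed by more than 2-fold. In B the same pair had an SD of 0.383 with 215 genes beyond 2-fold, above the 0.326 of R820W with N737H and about level with the 0.382 of R820W with I593T. WT and R820W, the other side, had an SD of 0.337 in A, wider than that of R820W with I593T (0.220) or with N737H (0.260). In B, WT and R820W were the closest pair (0.288). WT stood 0.474 from N737H and 0.451 from I593T in B, and 0.380 and 0.314 in A. The data of B thus go against a grouping by overall likeness of N737H and I593T, and the data of A against one of WT and R820W.

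**Figure D1:**
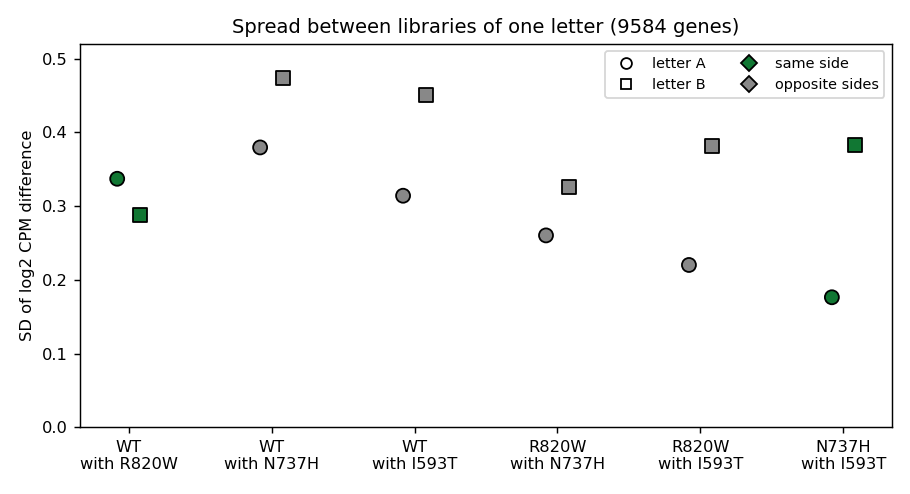
SD of the log2 CPM difference over 9584 genes (vertical axis) for each of the 6 pairs of constructs (horizontal axis), with circles for letter A, squares for letter B, green for constructs of the same side and grey for opposite sides. N737H with I593T is the lowest point of A at 0.177 and lies at 0.383 in B.

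Across those genes the difference between the sides did not run the same way in A and in B. Pearson's r between both differences was -0.0987 over 9584 genes, and 45% of the genes had the same sign. These are values across genes, which are not independent replicates and which share library and depth within a letter. The r was positive when WT A (0.115), WT B (0.0371) or N737H A (0.000907) was left out, and between -0.218 and -0.0829 without each of the others. Of the 100 genes that were lowest in A, 62 were also lower in B, where 59.6% of all genes were lower. Of the 100 highest in A, 25 were also higher in B, where 40.4% of all genes were higher. With the ranking made in B, 57 of 100 and 30 of 100 ran the same way in A, against 52% and 48% of all genes. Contrasts that share no library, N737H minus WT and I593T minus R820W, had an r of 0.129 in A and 0.221 in B, and 51.1% and 48.9% of the genes had the same sign. Set against itself across the letters, N737H minus WT had an r of -0.324 (37.6% with the same sign) and I593T minus R820W one of 0.139 (53.9%). N737H minus WT in A had an r of -0.0469 with I593T minus R820W in B (51.1%), and I593T minus R820W in A one of 0.217 with N737H minus WT in B (56.5%).

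**Figure D2:**
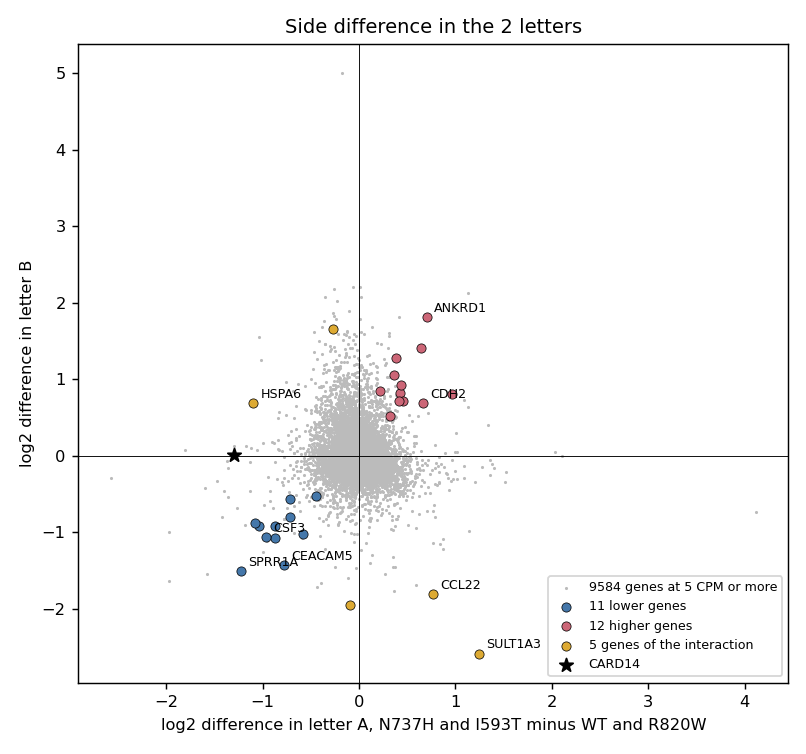
Log2 difference between the sides (N737H and I593T minus WT and R820W) in letter A on the horizontal axis and in letter B on the vertical axis, 1 point per gene with a mean of at least 5 CPM, with the named genes coloured and CARD14 as a star. The cloud has no common diagonal (r = -0.0987), the named lower and higher genes lie in the quadrants where both letters run the same way by their selection, and SULT1A3 lies at 1.24 in A and -2.59 in B.

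A fit with the letter as a block, made with edgeR's quasi-likelihood method, called 0 of 14154 genes (0%) at an adjusted p under 0.05. Unadjusted p-values under 0.05 covered 520 lower genes (3.67%) and 315 higher genes (2.23%). limma voom also called 0 genes. DESeq2 called 52 lower (0.491%) and 13 higher (0.123%) of the 10586 genes it kept. The sides did not overlap within A nor within B, that is, both libraries of one side lay beyond both of the other in each letter, for 630 lower genes (4.45%) and 348 higher genes (2.46%). Because the grouping came from this contrast, nothing is read from these shares. Genes whose sides stood apart in opposite ways numbered 544 (lower in A, higher in B) and 573 (higher in A, lower in B). The genes named below were taken from those that stood apart in both letters, 12 in each direction by smallest p with a mean of at least 5 CPM, of which 11 lower and 12 higher genes are reported. Log2 differences are N737H and I593T minus WT and R820W, with the standard error of that fit over 4 libraries a side. Its spread holds the differences between the constructs of a side as well as those between libraries of a construct. Since the grouping and the named genes were chosen from these values, the standard errors may be too small and are given as a description.

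CARD14 itself was at 1125 and 1189.6 CPM with WT and R820W in A against 444 and 499 with N737H and I593T, and at 977 and 1413 against 1012 and 1394 in B. The 2 sides did not overlap in A and overlapped fully in B. Its log2 difference was -0.64 ± 0.25, with -1.30 in A and 0.02 in B. Counts per gene cannot tell plasmid from endogenous transcripts. Every difference in A below therefore stands beside a lower CARD14 level with N737H and I593T, and its part in those differences was not tested; in B the CARD14 levels overlapped. MYC, the transcription factor named in the series title, had 739.7, 788, 739 and 740.1 CPM in A and 743, 704, 645 and 816 in B, in the order WT, R820W, N737H and I593T that is kept below. Its log2 difference was -0.02 ± 0.09, and the order of the constructs differed between the letters.

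The small proline-rich proteins (SPRR) were lower with N737H and I593T. They are substrates of transglutaminases, crosslinked beneath the plasma membrane of keratinocytes as the cornified envelope forms, and they are strongly induced in stressed and inflamed epidermis. Of 10 SPRR genes listed 6 passed the filter, and these 6 stood apart as lower in both letters, against 4.45% of all genes; nothing is read from that share, since the grouping used this contrast. SPRR1A was at 8.82 and 7.04 CPM with WT and R820W in A against 2.37 and 4.63 with N737H and I593T, and at 12.7 and 11.2 against 4.41 and 3.86 in B. N737H A was the lowest library of A, N737H and I593T were nearly level in B, and the log2 difference was -1.35 ± 0.21. SPRR1B was at 29.8 and 25.8 CPM with WT and R820W in A against 8.91 and 12.9 with N737H and I593T, and at 21.7 and 19.9 against 10.9 and 18.7 in B. Its gap was wide in A (-1.36) and narrower in B (-0.54), where I593T came within 2 CPM of R820W, and the log2 difference over both was -0.92 ± 0.22. SPRR2F, named after its values were seen, measured 1.02 and 1.29 CPM with N737H and I593T in A, where WT and R820W had 3.88 and 4.53, and 0.545 and 0.544 in B, where they had 1.98 and 2.83. Each value with N737H and I593T was below each value with WT and R820W in all 8 libraries, at a level near 1 CPM, and the log2 difference was -1.98 ± 0.25. SPRR2A (-1.02 ± 0.24), SPRR2D (-1.08 ± 0.23) and SPRR2E (-1.31 ± 0.21) lay in the same range. The SPRR2 genes are close copies of each other, and how the authors' counting split reads between them is not given in the sources used here, so their separate values are uncertain.

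The SPRR genes lie together on chromosome 1, and the sequences before their start sites are shown because the 4 promoters of tested SPRR genes in the RefSeq promoter table (SPRR1A, SPRR1B, SPRR2A and SPRR2F) held the letters TGANTCA, the core of the AP-1 motif. Of the 5 promoters of other SPRR genes in that table, 2 held them (SPRR3 and SPRR2G). The table gives 250 bases before to 50 after each start in GRCh38.p14, both strands were searched, and TGANTCA reads the same on both apart from the N. It occurred in 7.76% of all 27305 promoters, in 4 of the 9 promoters found for the 11 named lower genes (44.4%) and in 1 of 12 promoters of the named higher genes (8.33%). The 4 were PTAFR, SDCBP2, SERPINB13 and SPRR1A. GGANTTTCC, a short form of the kappa-B motif bound by NF-kB, occurred in 0 of the 9, 0 of the 12 and 1.64% of all. TATAAA, searched on the gene's strand, was in 3 of 9, 1 of 12 and 7.71% of all. A match describes letters in this window and is not a measured site. The 250 bases before the start follow 5′ to 3′ on the gene's strand, with the motif in capitals, for SPRR1A (chr1:152983831-152984080, plus strand), SPRR1B (chr1:153030953-153031202, plus strand) and SPRR2F (chr1:153113517-153113766, minus strand).
SPRR1A: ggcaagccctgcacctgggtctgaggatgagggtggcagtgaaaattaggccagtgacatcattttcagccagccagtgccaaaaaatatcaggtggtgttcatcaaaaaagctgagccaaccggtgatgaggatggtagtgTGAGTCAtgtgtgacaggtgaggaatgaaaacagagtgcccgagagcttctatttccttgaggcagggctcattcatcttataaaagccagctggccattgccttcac
SPRR1B: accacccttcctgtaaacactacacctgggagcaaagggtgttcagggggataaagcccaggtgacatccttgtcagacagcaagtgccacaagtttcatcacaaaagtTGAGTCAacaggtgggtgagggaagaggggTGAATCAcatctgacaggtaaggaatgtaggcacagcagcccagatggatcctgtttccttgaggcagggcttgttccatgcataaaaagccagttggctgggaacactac
SPRR2F: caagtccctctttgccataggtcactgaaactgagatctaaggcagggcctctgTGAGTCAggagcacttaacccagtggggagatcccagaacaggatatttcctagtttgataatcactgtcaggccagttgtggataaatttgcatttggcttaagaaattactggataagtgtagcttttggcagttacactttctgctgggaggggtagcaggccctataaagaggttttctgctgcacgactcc
The first base of the motif lies 108 bases before the start of SPRR1A, 141 and 111 before that of SPRR1B and 196 before that of SPRR2F. A relation between the number of matches and the size of the differences was not tested.

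Other genes of the cornified envelope and late differentiation were mixed. Of 24 listed genes other than the SPRR genes 10 passed the filter, 7 lower and 3 higher, with log2 differences from -0.90 (TGM1) to 0.61 (KRT10), and none of these 10 stood apart. With the 6 SPRR genes included, the 16 tested had a median log2 difference of -0.62 (A -0.42, B -0.53) against -0.0014 over all genes. That median was -0.37 with the filter of 10 counts in at least 6 libraries, and -0.45 without WT A. TGM1, the transglutaminase that crosslinks the envelope and named after its values were seen, had 6.08, 10.6, 6.64 and 6.88 CPM in A and 26.4, 23.3, 9.41 and 8.55 in B. Its difference was -0.25 in A and -1.46 in B, and over both -0.90 ± 0.25. The higher members were IVL (0.32 ± 0.30), FLG (0.39 ± 0.18) and KRT10 (0.61 ± 0.27), which encode involucrin, filaggrin and a suprabasal keratin. They were weakly expressed, with means of 1.23, 5.88 and 2.1 CPM, and KRT10 had 0.14 in A and 1.03 in B. CSTA and PPL, an envelope protease inhibitor and a plakin, were the most abundant members, at -0.09 ± 0.12 and -0.19 ± 0.11, and their sides overlapped. Without N737H B the PPL value was -0.11.

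Chemokines recruit leukocytes to inflamed skin, and several are classical NF-kB targets. Of 19 tested, 17 were lower, with a median of -0.62 (A -0.39, B -0.61), and 6 stood apart as lower (31.6%, against 4.45% of all genes) and 0 as higher (2.46% of all genes). Without I593T B the median was -0.39. CCL20, the ligand of CCR6 on dendritic cells and type 17 T cells, was at 12.8 and 11.2 CPM with WT and R820W in A against 6.01 and 8.005 with N737H and I593T, and at 10.2 and 9.75 against 4.56 and 6.92 in B. Both letters gave nearly the same gap, and the log2 difference was -0.78 ± 0.16. CCL3, a monocyte attractant, was at 84.9 and 164 CPM with WT and R820W in A against 41.9 and 57.4 with N737H and I593T, and at 46.8 and 64.2 against 26.5 and 43.8 in B. R820W was the highest library of each letter, and the log2 difference was -0.997 ± 0.25. CCL4 (-1.67 ± 0.39) and CCL4L2 (-2.07 ± 0.42) had the same order of constructs, with R820W highest. CCL4L2 was at 69.5 CPM in R820W A and 18.1 in WT A against 8.33 and 9.57 with N737H and I593T. Reads of CCL3 and CCL3L3, and of CCL4 and CCL4L2, can be shared, since these are near-identical copies. CXCL3, a neutrophil attractant named after its values were seen, measured 22.04 and 31.6 CPM with N737H and I593T in A, where WT and R820W had 102 and 47.9, and 20.01 and 29.8 in B, where they had 32.3 and 34.8, and had a log2 difference of -0.96 ± 0.28. The most abundant chemokines, IL8 (-0.34 ± 0.17) and CXCL1 (-0.18 ± 0.12), overlapped between the sides. Without WT A the values were -0.60 for CXCL3, -0.17 for IL8 and -0.095 for CXCL1, and without N737H A -0.20 for IL8 and -0.091 for CXCL1.

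Cytokines split by member. Of 24 tested, 16 were lower and 8 higher, with a median of -0.21 (A -0.05, B -0.23), and the 3 that stood apart (12.5%, against 4.45% of all genes) were IL36G, CSF3 and IL1RN, all lower. The median was -0.13 without R820W A and -0.11 without N737H A. IL36G, the interleukin-1 family member that is abundant in psoriatic epidermis, was at 38.5 and 34.4 CPM with WT and R820W in A against 14.7 and 21.1 with N737H and I593T, and at 19.1 and 22.3 against 9.71 and 12.2 in B. N737H was the lowest construct in both letters, and the log2 difference was -0.97 ± 0.14. CSF3, the granulocyte colony-stimulating factor, was at 23.1 and 18.5 CPM with WT and R820W in A against 8.82 and 12.6 with N737H and I593T, and at 17.2 and 19 against 7.87 and 9.39 in B. Again N737H lay below I593T in both letters, and the difference was -1.01 ± 0.15. IL1RN, the antagonist of the interleukin-1 receptor, had 222, 246, 185 and 175 CPM in A and 472, 369.8, 256 and 274 in B, a difference of -0.52 ± 0.11. IL1B, a pro-inflammatory cytokine, had -0.69 in A and 0.12 in B. IL24 (-0.997), LIF (-0.38), IL6 (0.24) and IL1A (0.05) did not stand apart, nor did TNF (-0.17) and CSF2 (-0.10). Of antimicrobial and alarmin genes, 8 of 16 passed the filter and 7 were lower (median -0.48). By letter that median was 0.10 (A) and -0.66 (B). PI3, the elastase inhibitor elafin, was the 1 that stood apart, at -0.47 (12.5% of the 8, against 4.45% of all genes). S100A8 and S100A9, the subunits of calprotectin, had 0.11 and 0.35 in A and -1.77 and -1.32 in B.

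**Figure D3:**
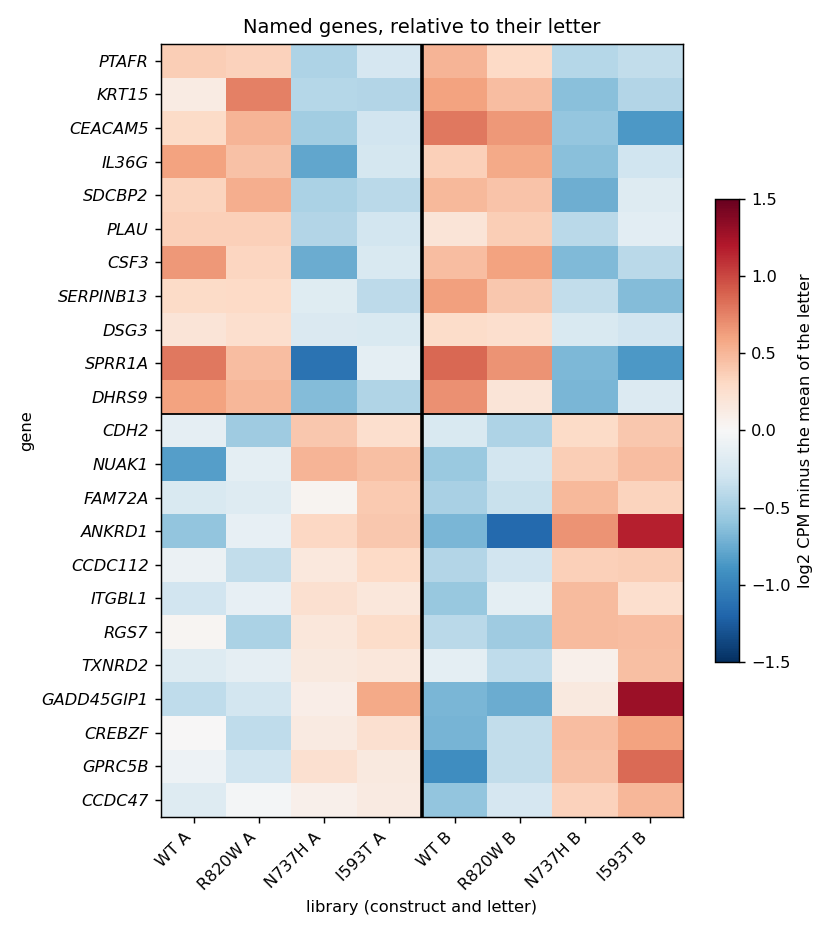
Log2 CPM of the 11 lower genes (top) and the 12 higher genes (bottom) in each library, minus the mean of the 4 libraries of the same letter (colour scale, red above and blue below the mean). Rows are genes and columns are libraries, and the opposite colours of WT and R820W against N737H and I593T in both letters follow from how the genes were selected.

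Proteases and their inhibitors leaned the same way. Of 23 tested genes for clade B serpins, plasminogen activators, metalloproteinases and their inhibitors, 20 were lower (median -0.28; -0.24 in A and -0.17 in B) and 7 stood apart as lower (30.4%, against 4.45% of all genes). PLAU, the urokinase that activates plasminogen at the cell surface, was at 948 and 952 CPM with WT and R820W in A against 544 and 612 with N737H and I593T, and at 471 and 531 against 309.9 and 366 in B. The gap was alike in both letters although the level in B was lower for every construct, and the log2 difference was -0.64 ± 0.09. SERPINB13, an inhibitor of cathepsins in squamous epithelium, was at 92.8 and 93.4 CPM with WT and R820W in A against 66.9 and 57.8 with N737H and I593T, and at 249 and 217 against 127 and 104 in B, a difference of -0.80 ± 0.12. SERPINB3, which inhibits cysteine proteases, had 17.9, 14.3, 11.3 and 12.3 CPM in A and 79.97, 57.7, 22.5 and 18.8 in B. Its difference was -1.11 ± 0.25 (-0.44 in A and -1.72 in B), and reads can be shared with its close copy SERPINB4. SERPINB5 (maspin) was abundant and little apart (-0.20 ± 0.08). SERPINB2, the inhibitor of plasminogen activators, had -0.67 in A and 0.03 in B. MMP1, MMP9 and MMP10, collagen and matrix proteases, had -0.45, -0.84 and -1.14 in A and 0.23, 0.09 and -0.08 in B.

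Carcinoembryonic antigen-related adhesion molecules are surface glycoproteins of differentiating epithelia. Of 5 tested of 8 listed, 4 were lower and 3 stood apart (60%, against 4.45% of all genes), with a median of -0.58 (A -0.32, B -0.80). CEACAM5 was at 4.25 and 4.94 CPM with WT and R820W in A against 2.42 and 2.86 with N737H and I593T, and at 44.6 and 40.4 against 17.3 and 14.2 in B. The level was far higher in B than in A for every construct, and the side gap was present at both levels, with a log2 difference of -1.16 ± 0.16. CEACAM6 measured 11.8 and 18.99 CPM with N737H and I593T in A, where WT and R820W had 46.7 and 34.8, and 40.02 and 50.8 in B, where they had 87.97 and 70.1, a difference of -1.09 ± 0.19, and CEACAM1 had -0.47 ± 0.11. Part of the reads of CEACAM5 and CEACAM6 can be shared. 3 further named lower genes belong to no list. PTAFR, the receptor of platelet-activating factor, was at 37.9 and 37.3 CPM with WT and R820W in A against 21.2 and 24.5 with N737H and I593T, and at 34.4 and 29.7 against 17.9 and 18.7 in B (-0.76 ± 0.10). SDCBP2, the PDZ-domain adaptor syntenin-2, had 27.01, 31.2, 15.5 and 16.1 CPM in A and 21.2, 20.3, 9.11 and 13.2 in B (-0.89 ± 0.13). DHRS9, a retinol and steroid dehydrogenase, had 7.95, 7.37, 3.34 and 3.82 CPM in A and 35.4, 25.2, 13.7 and 19.1 in B (-0.98 ± 0.16). In all of these, both libraries of N737H and I593T lay below both of WT and R820W in each letter.

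Keratins and adhesion genes of the keratinocyte itself were lower for most members, by small amounts. Of 18 basal keratinocyte and hemidesmosome genes 16 were lower in the fit over both letters (median -0.22) and 3 stood apart (16.7%, against 4.45% of all genes), but 16 of the 18 were lower in A and 8 in B, with medians of -0.27 and 0.01. The 8 keratinocyte markers, some of them in the same list, were all lower over both letters, 6 of them apart (75%), with a median of -0.33 (A -0.31, B -0.36). KRT15, a keratin of basal cells, was at 81.03 and 126 CPM with WT and R820W in A against 55.4 and 54.9 with N737H and I593T, and at 144 and 131 against 61.1 and 70.02 in B. The log2 difference was -0.99 ± 0.13, larger than that of KRT14 (-0.36), KRT5 (-0.27; 0.11 in A and -0.62 in B) or KRT17 (-0.39 ± 0.15). Of 5 stress keratins of activated epidermis 4 were lower (median -0.37), and KRT6A (-0.37 ± 0.12) and KRT6B (-0.92) stood apart (40%). TP63, the master transcription factor of stratified epithelia, was lower by a small and even amount (-0.30 ± 0.08; -0.26 in A and -0.34 in B). Of 24 genes of desmosomes and other junctions 17 were lower and 7 higher (median -0.18; -0.19 in A and -0.18 in B), and 11 stood apart as lower (45.8%, against 4.45% of all genes). DSG3, the desmosomal cadherin targeted in pemphigus vulgaris, was at 306 and 319.7 CPM with WT and R820W in A against 231 and 228 with N737H and I593T, and at 354 and 347 against 249.6 and 239 in B. Its standard error was the smallest of the 11, with a difference of -0.48 ± 0.07. DSP (-0.33 ± 0.08), DSC3 (-0.27 ± 0.08), CDH1 (-0.18 ± 0.08) and CDH3 (-0.25 ± 0.10), which encode desmoplakin, desmocollin-3, E-cadherin and P-cadherin, were apart with small differences, and the CDH3 value was -0.16 without R820W A. GJA1, the gap junction protein connexin 43, was higher, with 0.89 in A and 0.04 in B. LAMA3 and LAMB3, which encode laminin chains of the basement membrane, differed by letter, with -0.80 and -1.06 in A and 0.06 and 0.07 in B. The summed keratinocyte markers ran lower with N737H and I593T, as given above, and their part in the values of these epithelial genes was not tested.

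Genes of the CARD14 signalling chain, CARD14 itself among them, mostly had small differences. Of 20 tested, 14 were lower and 6 higher (median -0.11, with -0.12 in A and -0.01 in B). By letter, 19 of the 20 were lower in A and 12 in B, against 7524 and 7281 of all 14154 genes tested. The median was -0.059 without N737H A. TRAF6, the ubiquitin ligase that MALT1 recruits, and IKBKB, the IKK-beta kinase, stood apart at -0.20 and -0.26 (10% of the 20, against 4.45% of all genes). BCL10 and MALT1, which active CARD14 gathers into a filament, had -0.24 ± 0.10 and 0.08. Of 14 NF-kB subunits and feedback inhibitors, 7 were lower and 7 higher (median -0.02, and between -0.060 and 0.072 with a library left out). TNIP1, a partner of the deubiquitinase A20, was the 1 apart, at -0.44 ± 0.14 (7.14% of the 14, against 4.45% of all genes). TNFAIP3, which encodes A20, had -0.91 in A and 0.18 in B. NFKBIA, the inhibitor IkB-alpha and itself an NF-kB target, had 117, 100.3, 83.03 and 98.7 CPM in A and 79.2, 146, 185 and 298 in B. It was lower in A and higher in B with N737H and I593T. Its difference over both letters was 0.42 ± 0.30, or 0.13 without WT B, 0.16 without I593T B and 0.64 without N737H A. In B, 18 of the 19 chemokines and 7281 of all 14154 genes tested were lower.

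**Figure D4:**
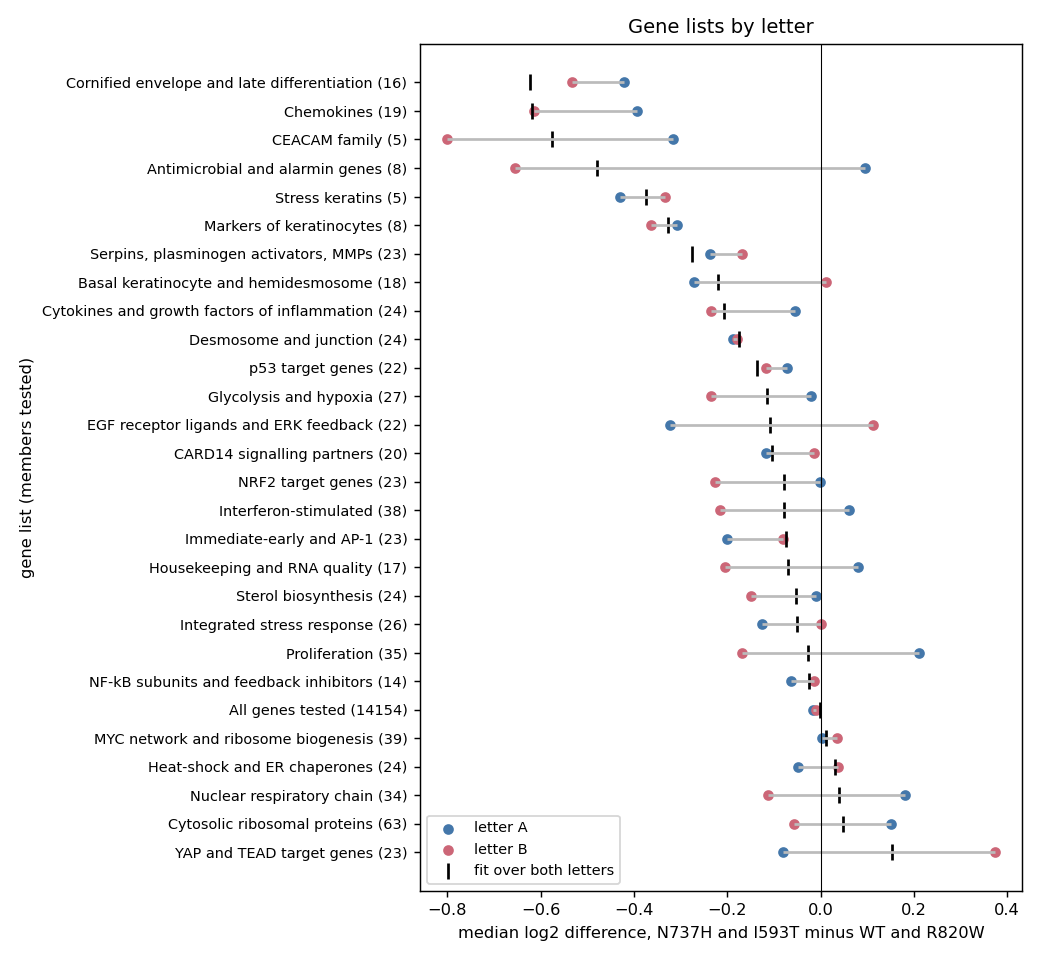
Median log2 difference of each gene list (rows, members tested in brackets) in letter A (blue), in letter B (red) and in the fit over both (black bar). Cornified envelope, chemokine and CEACAM genes lie left of 0 in both letters, and YAP and TEAD target genes lie at -0.08 in A and 0.37 in B.

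Among the higher genes, CDH2 and ANKRD1 had named roles in mesenchymal adhesion and in YAP signalling. CDH2, which encodes N-cadherin, was at 26.5 and 20.02 CPM with WT and R820W in A against 38.4 and 34.5 with N737H and I593T, and at 11.2 and 9.53 against 16.05 and 17.5 in B. The gap was alike in both letters, with a log2 difference of 0.67 ± 0.12, while E-cadherin and P-cadherin were slightly lower. NUAK1, a kinase of the AMPK family, was at 4.16 and 6.63 CPM with WT and R820W in A against 10.5 and 10.1 with N737H and I593T, and at 3.23 and 3.92 against 6.14 and 6.53 in B (0.88 ± 0.17). ANKRD1, an ankyrin-repeat protein that is a standard target of the YAP-TEAD complex, was at 4.07 and 5.602 CPM with WT and R820W in A against 7.61 and 8.09 with N737H and I593T, and at 4.48 and 3.21 against 11.4 and 16.2 in B. Its difference of 1.26 ± 0.26 was the largest of the 12 higher genes, with 0.70 in A and 1.82 in B. Of 23 YAP and TEAD target genes 16 were higher (median 0.15) and 3 stood apart as higher (13%, against 2.46% of all genes): ANKRD1, FJX1 (0.31, and 0.21 without I593T B) and TGFB2 (0.34). The other 7 were lower, and 1 of these stood apart as lower (4.35%, against 4.45% of all genes). In A the median was -0.08 and in B 0.37. It was 0.071 without R820W B or without I593T B, and between 0.24 and 0.25 without WT A, N737H A or I593T A. CYR61, a matricellular target of the same complex named after its values were seen, was at 56.99 and 107 CPM with WT and R820W in A against 86.03 and 109 with N737H and I593T, and at 45.5 and 93.3 against 150.4 and 259.8 in B. WT was the lowest library of each letter, R820W lay among the variants in A, and the difference was 0.91 ± 0.34, or 0.60 without WT B. CTGF, a further such target at no more than 5.29 CPM in any library, had 0.04 in A and 2.19 in B.

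The promoter of ANKRD1 is shown because its difference was the largest of the 12 higher genes and it holds the TEAD core GGAATG. Searched on both strands, GGAATG occurred in 14.0% of all promoters, in 1 of the 12 higher and in 1 of the 9 lower promoters found. The 1 of the 9 was SPRR1A, and the promoter of SPRR1B, also lower, held 1 match too. The 250 bases before its start (chr10:90921088-90921337, minus strand, GRCh38.p14) follow with GGAATG in capitals.
ANKRD1: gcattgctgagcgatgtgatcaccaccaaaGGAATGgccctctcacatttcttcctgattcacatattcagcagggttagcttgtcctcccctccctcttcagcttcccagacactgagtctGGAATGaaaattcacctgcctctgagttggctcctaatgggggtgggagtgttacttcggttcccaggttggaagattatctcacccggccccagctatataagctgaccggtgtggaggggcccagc
The matches start 220 and 128 bases before the start site. The same promoter was the 1 of the 12 with TGANTCA.

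The other higher genes had smaller differences in A than in B. FAM72A had 16.4, 16.8, 19.8 and 25.2 CPM in A and 15.1, 16.7, 29.6 and 26.6 in B (0.63 ± 0.13), and its near-identical copies can share its reads. ITGBL1, an integrin-beta-like secreted protein, had 17.05, 19.1, 24.7 and 23.4 CPM in A and 12.5, 16.8, 25.9 and 22.2 in B (0.56 ± 0.13). RGS7, a regulator of G-protein signalling, had 10.2, 7.21, 11.2 and 12.1 CPM in A and 8.39, 7.68, 15.4 and 15.3 in B (0.68 ± 0.16). GPRC5B, an orphan G-protein-coupled receptor, had 0.38 in A and 1.28 in B. TXNRD2, the mitochondrial thioredoxin reductase, had 69.6, 72.5, 88.1 and 89.2 CPM in A and 67.8, 57.9, 79.2 and 102 in B, the smallest difference of the 12 (0.42 ± 0.10). GADD45GIP1, a mitochondrial ribosome protein, had 2.605, 2.801, 3.63 and 5.03 CPM in A and 4.34, 4.19, 7.73 and 17.1 in B. I593T B was far above the other 7 libraries, and its difference of 1.13 ± 0.28 was 0.77 without that library. CREBZF, a bZIP transcription factor, CCDC112 and CCDC47, an ER membrane protein, had 0.71 ± 0.18, 0.59 ± 0.13 and 0.53 ± 0.14. For 9 of these 12 genes I593T was above N737H in B.

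Stress, growth and metabolic programmes had medians nearer to 0. Between 2.56% and 13% of the members of the p53, NRF2, AP-1, EGF receptor, MYC and stress response lists stood apart as lower, against 4.45% of all genes. Of 22 p53 target genes 16 were lower (median -0.14, and -0.084 without R820W A), led by CDKN1A, the cell-cycle inhibitor p21, which had 379.7, 356, 217 and 262 CPM in A and 333, 329, 174 and 273 in B (-0.59 ± 0.13). Among 23 NRF2 target genes (median -0.08, and between -0.13 and -0.0060 with a library left out) AKR1C1 (-0.79 ± 0.14) and AKR1C2 (-0.79 ± 0.19), near-identical aldo-keto reductases, stood apart as lower. Of 23 immediate-early and AP-1 genes 14 were lower (median -0.08, and between -0.13 and 0.0014 with a library left out), with EGR1 (-0.29), KLF6 (-0.46 ± 0.10) and ZFP36 (-0.62) apart, and the AP-1 subunits FOS (0.13 in A, -1.30 in B) and FOSL1 (-0.48, 1.14) ran opposite ways in the letters. Of 22 genes of the EGF receptor and its ERK feedback, EREG (-0.43) and DUSP6 (-0.29) were apart as lower and EPGN (0.53) and SPRY1 (0.57) as higher. That was 9.09% of the 22 each way, against 4.45% of all genes as lower and 2.46% as higher. In the MYC network and ribosome biogenesis list 17 of 39 were lower and 22 higher (median 0.01, and between -0.011 and 0.047 with a library left out). Of these 39, 3 stood apart as higher (7.69%, against 2.46% of all genes) and 1 as lower (2.56%, against 4.45%). The lower 1 was MXD1, a repressor that competes with MYC for MAX (-0.57). Of 26 integrated stress response genes, DDIT4 (-0.44) and WARS (-0.52 ± 0.11) were the 2 apart. For interferon-stimulated genes the A median was 0.06 and the B median -0.22, for cytosolic ribosomal proteins 0.15 and -0.06, for nuclear respiratory-chain genes 0.18 and -0.11, and for proliferation genes 0.21 and -0.17.

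Within a side, the constructs were not level. Among the 11 named lower genes N737H was below I593T for 8 in A and 7 in B, with a median gap of -0.19 and -0.20 log2 units. Over all 630 genes that stood apart as lower, N737H was below I593T for 327 in A and 369 in B (51.9% and 58.6%), against 49.1% and 52.2% of all genes tested. R820W was below WT for 371 of the 630 in A and 395 in B (58.9% and 62.7%), against 49.9% and 52.2% of all genes tested. Among the 11 named lower genes, R820W was below WT for 5 in A and 8 in B. CCL3, CCL4 and their copies were higher with R820W than with WT in both letters.

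Whether the difference between the sides was alike in the 2 letters was examined by the interaction of letter and side. Its residual spread is that of N737H with I593T and of WT with R820W within a letter. N737H and I593T were grouped for their likeness, so the p-values may be too small and are given as a description. edgeR's quasi-likelihood method called 1 of 14154 genes (0.00707%) at an adjusted p under 0.05, limma voom also 1, and DESeq2 155 of 10586 (1.46%), of which 126 were higher in B and 29 lower. The unadjusted p was under 0.05 for 1437 genes. p-values here measure the spread between these 8 libraries, with 4 residual degrees of freedom, and whether the letters are separate cultures is not stated. The edgeR count was 63 without R820W A and 155 without N737H B, and stayed at 1 without each of the other 6.

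The called gene was SULT1A3, a sulfotransferase of catecholamines. It was at 13.6 and 11.1 CPM with WT and R820W in A against 24.9 and 34.2 with N737H and I593T, and at 33.3 and 40.5 against 5.94 and 6.13 in B. N737H and I593T were thus above the other side in A and below it in B, and the difference of the contrast between the letters was -3.87 ± 0.28 (edgeR adjusted p = 0.000667). SULT1A4, a near-identical copy whose values were looked up for this reason, had 12.4, 41.1, 29.8 and 15.8 CPM in A and 13.4, 2.12, 23.8 and 26.7 in B, opposite to SULT1A3 in B. The sum of both genes was 26, 52.2, 54.7 and 49.96 CPM in A and 46.7, 42.6, 29.7 and 32.8 in B. The split of reads between the copies is unknown, so the value of SULT1A3 alone is uncertain.

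The other 4 named genes of the interaction did not pass (edgeR adjusted p = 0.312 for each). HSPA6, an inducible heat-shock protein, had 120.2, 90.5, 43.7 and 53.98 CPM in A and 40.1, 44.2, 52.9 and 87.03 in B. Both N737H and I593T lay below WT and R820W in A and above them in B, and the interaction was 1.84 ± 0.32. ARHGEF28, a guanine-nucleotide exchange factor, had 1.96 ± 0.32. CCL22, a chemokine for type 2 and regulatory T cells, had 9.09, 20.2, 23.98 and 22.2 CPM in A and 108, 88.1, 26.4 and 29.1 in B. It was high with WT and R820W in B and lowest with WT in A, and the interaction was -2.47 ± 0.40. SERPINB4 had -1.83 ± 0.36. IGFBP3, a binding protein of insulin-like growth factors, was lower in A (-1.02) and higher in B (1.25) with N737H and I593T. For CARD14 the interaction was 1.31 ± 0.28 (edgeR adjusted p = 0.312). For the 11 named lower genes it lay between -0.63 and 0.21 (adjusted p = 0.469 to 0.991), and for the 12 higher genes between -0.10 and 1.14 (adjusted p = 0.383 to 0.970), but their selection required the same direction in both letters.

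**Figure D5:**
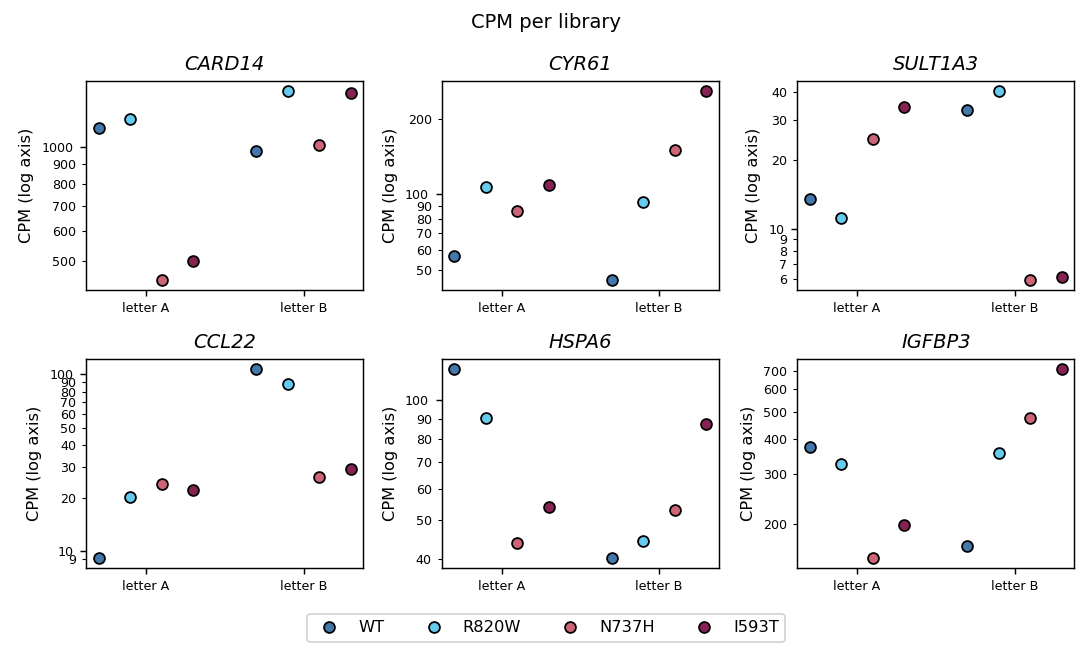
CPM on a log axis for 6 genes in each library, with letter A on the left and letter B on the right of each panel and the constructs in the order WT, R820W, N737H and I593T (colours). CARD14 with N737H and I593T lies below WT and R820W in A and among them in B, CYR61 is highest with I593T in B, and SULT1A3, CCL22, HSPA6 and IGFBP3 differ between the sides in unlike ways in the 2 letters.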

How the data were processed

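RNA of 8 libraries was analysed, 2 for each of the 4 constructs. The authors deposited raw counts, whole numbers by gene symbol. The submitters' processing notes name hg19, FastQC, MACS2 and DESeq2, without versions or roles; for the aligner, counting program, annotation and strand setting, the answer is not given in the sources used here. Groups and letters come from the sample titles. The grouping into sides, the gene lists and the members were chosen with earlier results of these data known.

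Genes with at least 10 counts in at least 4 of 8 libraries were kept (14154 genes, 99.9% of the counts). edgeR 4.0.16 in R 4.3.3 (TMM normalisation, glmQLFit and glmQLFTest, two-sided, Benjamini-Hochberg adjustment over all genes tested, threshold 0.05) fitted letter plus side with 5 residual degrees of freedom, and letter by side with 4. CPM came from normalised library sizes; log2 differences within a letter used a prior count of 2. DESeq2 1.42.0 and limma 3.58.1 (voom) were alternatives, with other filters and normalisations and each library left out. Named genes were CARD14, MYC and the 12 higher and 12 lower genes of smallest p with 5 CPM or more on average and sides that did not overlap in either letter. Added to these were the 2 most abundant members of described lists and the list members with a DESeq2 adjusted p under 0.05. The 3 genes of smallest interaction p in each direction were also named. Other genes were chosen after their values were seen. Scripts were tested on simulated data. Libraries all differed by more than sampling noise (smallest chi-square per gene 6.56). Promoters came from RefSeq (GRCh38.p14) and were matched by symbol. Some genes that the rule names, 1 of the 12 lower among them, are not reported here; fits and counts over all genes and lists include them.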

Additional observations from a re-analysis of the deposited data

Results flagged for a closer look

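Within a side of 4 libraries, 1 library lay far from the other 3 by Dixon's criterion at 95% for 5 named genes. The criterion was applied to both sides of every named gene, and chance gives about 1 in 20 groups. Such groups therefore also arise by chance, and the 5 are given as a description. WT B was high for CSTA (93.9 CPM, the other 3 at 68.1 to 69.3) and low for IGFBP3 (166 CPM, the others at 327 to 375). N737H B was low for TNIP1 (86.2 CPM, the others at 139 to 151), KRT6A (416 CPM, the others at 550.4 to 581) and CLDN4 (359 CPM, the others at 474 to 493).

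The contrast of the sides differed between the letters for SULT1A3, by -3.869 log2 units from A to B in the edgeR interaction fit, the 1 gene that passed, with p-values that may be too small because N737H and I593T were grouped for their likeness. For 5 further named genes both libraries of a side lay beyond both of the other side in A and the opposite way in B, while the interaction did not pass. Its estimates were 1.96 for ARHGEF28, 1.839 for HSPA6, -2.471 for CCL22, 2.188 for IGFBP3 and 1.357 for NFKBIA (edgeR adjusted p = 0.312 for the first 4 and 0.355 for NFKBIA). Such opposite patterns were found for 544 and 573 genes of all 14154 tested.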

How the results depend on the processing

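The count of genes called between the sides was 0, and 0 with RLE normalisation, a filter of 10 counts in 6 libraries, limma voom, construct means, CARD14 left out of the normalisation, and no replicate block (491 unadjusted p-values under 0.05 against 835 with the block). It was 341 with no filter on low counts (151 lower, 190 higher), 65 with DESeq2 and the replicate block, 1 within letter A (CARD14) and 4 within letter B. Leaving out 1 library gave 0 to 1, the 1 (KRT15) without WT A. The count for the interaction, 1, became 514 with no filter and 155 with DESeq2, and lay between 1 and 155 when 1 library was left out (63 without R820W A, 155 without N737H B). The cause was not tested. Genes apart in both letters numbered 807 to 1299 lower and 562 to 967 higher with a library left out, when fewer libraries have to separate. The letters share a number and not a stated culture: same-letter libraries deviated from their construct means with a correlation of 0.00835 (WT and N737H) or 0.337 to 0.452 (other pairs). The sign of the difference turned within letter B for CARD14 (0.0385), SERPINB2 (0.0833), IL1B (0.172), TNFAIP3 (0.180), LAMA3 (0.0963) and LAMB3 (0.212), and within letter A for IGFBP3 (-1.01), LDHA (0.13), F3 (-0.0849) and NFKBIA (-0.257). MYC had 0.00421 with the stricter filter and 0.0478 within B. With 1 library left out, MYC ran from -0.0825 to 0.0419 (above 0 without R820W A or N737H B), CSTA from -0.164 to 0.0263 (above 0 without WT B), IGFBP3 from -0.361 to 0.469 (below 0 without WT B, R820W B or I593T B) and TXN from -0.142 to 0.0756 (above 0 without WT A or WT B). None of the 23 named lower and higher genes changed sign under the 18 alternatives run. By selection their sides did not overlap in either letter, which fixed the sign within a letter or with a library left out. Nothing is therefore read from their stable sign. Lists and weakly expressed genes (SPRR2F, CTGF) are limited by depth near 1 CPM.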

Other observations

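Further genes of epidermal barrier and signalling, named after their values were seen, ran lower with N737H and I593T in both letters. ECM1, an extracellular matrix protein of skin, had 106, 104, 57.1 and 63.4 CPM in A and 143, 127, 93.5 and 121 in B (WT, R820W, N737H, I593T), a log2 difference of -0.57 ± 0.12. ABCA12, the lipid transporter of lamellar granules, had 21.1, 24.6, 15.9 and 18.4 CPM in A and 16.5, 19.1, 12.03 and 10.6 in B (-0.53 ± 0.12). GRHL1, a transcription factor of desmosomal cadherin genes, had 20.98, 19.03, 15.3 and 14.5 CPM in A and 17.8, 16.6, 12.4 and 11.3 in B (-0.48 ± 0.10). TRAF1, an adaptor of TNF receptors and an NF-kB target, had 21.5, 29.99, 13.9 and 15.6 CPM in A and 7.47, 9.31, 3.57 and 6.13 in B (-0.79 ± 0.18). LPAR5, a lysophosphatidic acid receptor, and TSC22D3, a glucocorticoid-induced leucine zipper protein, had -0.62 ± 0.14 and -0.47 ± 0.11. STC1, the secreted glycoprotein stanniocalcin-1, had -1.03 ± 0.24, mostly from B (-1.66, against -0.40 in A).

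All 27 tested genes of glycolysis and hypoxia (of 30 listed) had a difference below 0 in the fit over both letters, but the differences were small (median -0.11, and -0.18 without WT A), 15 of 27 were lower in A and 23 of 27 in B. SLC2A1, PFKFB4 and NDRG1 stood apart as lower (11.1%, against 4.45% of all genes). NDRG1, a hypoxia-induced gene, had 16.1, 15.3, 10.5 and 9.13 CPM in A and 25.4, 19.8, 10 and 12.3 in B. APOBEC3A, a cytidine deaminase, had 16.8 and 30.1 CPM with WT and R820W in A against 3.15 and 4.30 with N737H and I593T, and 5.98 and 12.4 against 10.1 and 4.85 in B. SENP3, a SUMO protease, was at 1192 CPM in I593T B and between 0.920 and 1.96 CPM in the other 7 libraries; overlapping gene models can share reads, and how they were counted is not given in the sources used here.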
